A study of Mus musculus with 16 samples.

Results

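The Ms4a genes encode a family of small membrane proteins, and 9 of them, named here because members of the family are known from macrophages, monocytes and other blood cells, were followed across 16 arrays of mouse lung RNA. Every spot of the deposited value table annotated to Ms4a7, Ms4a4a, Ms4a4b, Ms4a4c, Ms4a6b, Ms4a6c, Ms4a6d, Ms4a8a or Ms4a14 was taken, which gave 11 spots of 62976 and 9 genes of 20863. Ms4a4c had 3 spots and each of the other members had 1. The members were chosen from genes whose log2 differences between bleomycin and saline arrays were already known, and which of those values decided is not recorded, so values of the members in that comparison are descriptions.

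The study set a CAV1 TSB, a target site blocker that is an oligonucleotide made to cover a microRNA binding site on the Cav1 transcript, against a Control TSB in lungs given bleomycin, which is used to cause fibrosis in mice. All groups were C57BL/6 mice of 9 to 12 weeks, and total RNA of the whole lung was hybridised in a single colour, with 1 array per sample. The 4 groups were bleomycin with the CAV1 blocker (6 arrays), bleomycin with the control blocker (6 arrays), PBS with the CAV1 blocker (2 arrays) and PBS with the control blocker (2 arrays). Per the labels, intratracheal blocker was given 3 times, at day 4 and day 2 ahead of the bleomycin (1 unit/kg) or PBS dose and at day 4 following it, and the CAV1 blocker was dosed at 5 mg/kg while no dose was stated for the control blocker. The collection time was not stated either. The labels do not say that each sample came from its own mouse, and the p-values reflect only how far these samples vary, which may be technical.

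MS4A proteins cross the membrane several times and act beside other receptors. Ms4a1 is CD20 of B cells and Ms4a2 is the beta chain of the high-affinity IgE receptor, while MS4A4A in macrophages associates with the beta-glucan receptor Dectin-1, encoded by Clec7a, and the human gene cluster is linked to the level of soluble TREM2. In mouse lung Ms4a7 is used as a marker of macrophages derived from blood monocytes, and Ms4a4b is an adaptor of T cells that associates with the receptor GITR. The name of the family in myeloid cells could therefore not be checked cell by cell, since whole lung RNA mixes all cell types.

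The annotation, RefSeq on mouse build GRCm38.p6, places 21 Ms4a genes on chromosome 19, with 11 other gene models between the first and the last, of which 1 is protein-coding. In the order of the chromosome, Ms4a14, Ms4a7, Ms4a4a, Ms4a4c, Ms4a4b, Ms4a6c and Ms4a6b stand next to each other among the Ms4a genes. Ms4a6d follows after Ms4a4d, and Ms4a8a lies apart from the other members. Promoter windows from 250 bases before to 50 bases after the start of the transcript were held for 8 of the 9 members, with 2 windows for Ms4a7. The windows of Ms4a7 and Ms4a14 are shown because these genes were lower with the CAV1 blocker after bleomycin. Capitals mark the letters GAGGAA, the core bound by PU.1 and other ETS factors, and TGANTCA, the AP-1 motif, on either strand. The first Ms4a7 window is chr19:11336097-11336396, the second is chr19:11334646-11334945 and the Ms4a14 window is chr19:11314405-11314704, all on the minus strand and written 5′ to 3′.
Ms4a7, first window: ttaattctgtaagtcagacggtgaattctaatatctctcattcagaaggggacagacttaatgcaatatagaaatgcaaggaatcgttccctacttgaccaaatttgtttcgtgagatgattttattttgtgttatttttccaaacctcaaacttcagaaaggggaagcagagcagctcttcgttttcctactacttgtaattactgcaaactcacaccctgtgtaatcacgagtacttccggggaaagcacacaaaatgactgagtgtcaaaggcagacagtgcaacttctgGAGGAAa
Ms4a7, second window: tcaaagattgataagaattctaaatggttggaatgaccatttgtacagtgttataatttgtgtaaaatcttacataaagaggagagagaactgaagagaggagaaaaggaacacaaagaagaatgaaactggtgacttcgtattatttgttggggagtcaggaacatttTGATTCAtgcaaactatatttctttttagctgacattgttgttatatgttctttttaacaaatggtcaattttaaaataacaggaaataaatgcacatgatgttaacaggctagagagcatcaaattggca
Ms4a14: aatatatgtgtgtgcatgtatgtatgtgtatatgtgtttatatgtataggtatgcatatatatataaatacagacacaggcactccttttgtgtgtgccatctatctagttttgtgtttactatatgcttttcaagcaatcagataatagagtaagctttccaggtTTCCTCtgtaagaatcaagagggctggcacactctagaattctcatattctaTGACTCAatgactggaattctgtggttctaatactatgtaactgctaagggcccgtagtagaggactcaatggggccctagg
GAGGAA stood in 4 of the 9 member windows, against 28.3% of 32851 windows of the whole table, and TGANTCA in 4 of 9, against 7.81%. The longer repeat motif of interferon regulatory factors stood in 0 of 9 member windows, against 3.44%. No overlap between GAGGAA and TGANTCA matches was found in the windows shown. These are matches of letters, not measured binding.

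Several members belong to closely related subgroups, as their names show. Among the 36 pairs of member windows the longest identical run had a median of 8 bases, while Ms4a6b and Ms4a6c shared a run of 48 bases and Ms4a4b and Ms4a4c one of 20. The Ms4a4b window, chr19:11443308-11443607, and the Ms4a4c window, chr19:11407411-11407710, both on the plus strand, are shown with the shared run in capitals. They are shown because the brightest Ms4a4c spot behaved differently from the Ms4a4b spot in these lungs, while the dimmer Ms4a4c spots went with it.
Ms4a4b: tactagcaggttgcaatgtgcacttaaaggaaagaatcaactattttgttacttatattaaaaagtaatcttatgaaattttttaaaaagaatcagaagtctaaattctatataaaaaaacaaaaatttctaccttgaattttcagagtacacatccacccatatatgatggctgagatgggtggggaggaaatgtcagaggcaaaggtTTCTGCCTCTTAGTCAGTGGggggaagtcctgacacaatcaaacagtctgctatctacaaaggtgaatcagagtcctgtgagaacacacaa
Ms4a4c: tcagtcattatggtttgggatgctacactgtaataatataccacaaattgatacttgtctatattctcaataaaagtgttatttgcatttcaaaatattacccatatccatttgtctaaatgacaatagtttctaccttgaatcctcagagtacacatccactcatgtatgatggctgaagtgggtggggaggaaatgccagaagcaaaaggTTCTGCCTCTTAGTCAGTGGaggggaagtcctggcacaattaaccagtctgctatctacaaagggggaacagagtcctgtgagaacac
The probe sequences were not used here, so a spot of Ms4a4b, Ms4a4c, Ms4a6b, Ms4a6c or Ms4a6d may also take up RNA of a related gene.

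Some arrays stood apart. Mean levels of 12 skeletal muscle markers and 12 squamous epithelium markers, on the log2 scale, were 7.29 to 8.60 and 7.48 to 7.83 in 5 arrays, and 10.32 to 12.86 and 10.80 to 11.77 in the other 11. The 5 low arrays were array 3 of bleomycin with the CAV1 blocker, arrays 2 and 6 of bleomycin with the control blocker and both of PBS with the CAV1 blocker, so that this difference separated the PBS groups. Array 1 of bleomycin with the CAV1 blocker had the lowest monocyte-derived macrophage marker level among the bleomycin arrays. Array 2 of PBS with the control blocker lay above every bleomycin array with the control blocker in 123 of the 243 genes called higher with the CAV1 blocker after bleomycin, while array 1 of that group did so in 41. Array 2 did so and array 1 did not in 104 of the 243, against 4072 of all 20304 genes, and the 243 were picked for low values in the same bleomycin arrays.

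All 9 members passed the filter on dim genes, which kept 20304 genes. Values below are the deposited log2 signals, and the level of one spot says nothing about that of another. In lungs with the control blocker, 4 of 9 members were called higher after bleomycin than after PBS and 0 lower, by limma over all genes at an adjusted p under 0.05, against 1.96% of all genes called higher and 0.448% called lower, 2.41% together. The 4 were Ms4a7, Ms4a6d, Ms4a14 and Ms4a6c. Since the list was drawn up with this comparison known, nothing is read from that count, and it was 0 without array 2 of PBS with the control blocker, when 0.448% of all genes were called. Without array 1 of that group 6 members were called, when 20.1% of all genes were called. Of those 6, Ms4a4c (-0.94) was lower and Ms4a6b (0.68) was higher, beside the 4 above. The median log2 change was 0.26 over the members and 0.03 over all genes.

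**Figure D1:**
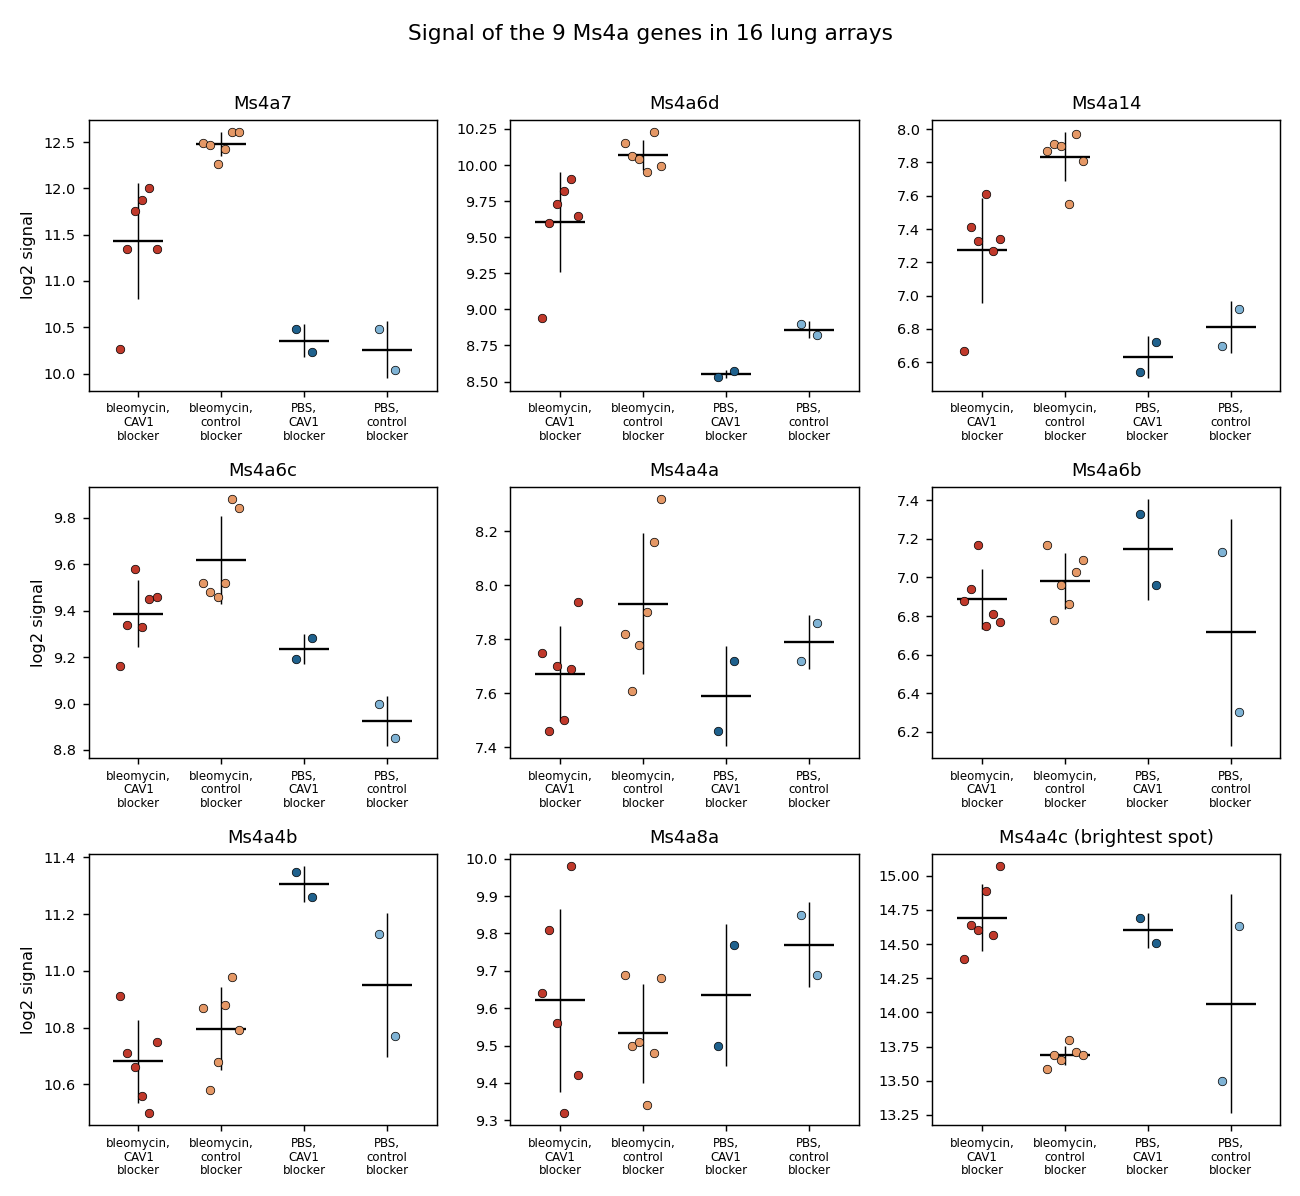
Log2 signal of the brightest spot of each member in every array, with a panel and a vertical scale for each gene. Points are arrays, horizontal lines are group means and vertical lines are SDs, and in the Ms4a7 panel the bleomycin arrays with the control blocker lie between 12.26 and 12.61, above all others.

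Ms4a7 had the largest bleomycin difference of the 9 members. In bleomycin lungs with the CAV1 blocker it had a lowest value of 10.27, a median of 11.55 and a highest value of 12.00. In bleomycin lungs with the control blocker the lowest was 12.26, the median 12.48 and the highest 12.61. PBS lungs had 10.48 and 10.23 with the CAV1 blocker, and 10.48 and 10.04 with the control blocker. The bleomycin arrays with the control blocker thus lay above every other array, and those with the CAV1 blocker lay between them and the PBS arrays, except array 1, which at 10.27 stood within the PBS range. Group means were 11.43 ± 0.63 after bleomycin with the CAV1 blocker and 12.48 ± 0.13 after bleomycin with the control blocker (SD, n = 6 each). They were 10.36 ± 0.18 after PBS with the CAV1 blocker and 10.26 ± 0.31 after PBS with the control blocker (SD, n = 2 each). As a description, Ms4a7 was higher after bleomycin than after PBS by 1.08 (SE 0.317) with the CAV1 blocker, where it was not among the calls, and by 2.22 (SE 0.317) with the control blocker. Without array 1 the CAV1 blocker value was 1.31. In bulk lung, fewer cells of a type and less RNA per cell cannot be told apart.

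With the CAV1 blocker, Ms4a7 fell after bleomycin relative to the control blocker, by 1.05 on the log2 scale (SE 0.224, 95% interval -1.52 to -0.57), which is 0.485-fold, with an adjusted p of 0.0236 by limma over all genes. Every array with the CAV1 blocker lay below every array with the control blocker. The arrays with the control blocker also stand in the bleomycin comparison that was known when the members were chosen. The p-values of Ms4a7 between blockers are therefore not independent of that choice. Without array 1 of the CAV1 blocker group the change was -0.81 and the adjusted p 0.00424. The call did not hold when array 1, 2, 5 or 6 of the control blocker group or array 2 or 6 of the CAV1 blocker group was left out, with adjusted p values of 0.0514 to 0.0619 and changes of -1.05 to -1.02. It held in the other 10 of 16 such fits. Without the 3 bleomycin arrays low in muscle and squamous markers and both PBS arrays with the CAV1 blocker, the Ms4a7 change was -1.08 with an adjusted p of 0.214, and without the 2 arrays of RNA integrity number 10, both in the control blocker group, it was -1.01 with an adjusted p of 0.159.

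Ms4a6d, a macrophage protein that associates in mice with the complement receptor Vsig4, had a similar order of groups. Its values after bleomycin ran from 8.94 over a median of 9.69 to 9.90 with the CAV1 blocker, and from 9.95 over 10.05 to 10.23 with the control blocker. PBS lungs had 8.53 and 8.57 with the CAV1 blocker and 8.90 and 8.82 with the control blocker. The bleomycin groups did not overlap each other, and both lay above the PBS arrays that had the same blocker. As a description, Ms4a6d was higher after bleomycin by 1.06 (SE 0.178) with the CAV1 blocker and by 1.21 (SE 0.178) with the control blocker. Between the blockers after bleomycin the Ms4a6d difference was -0.46 (SE 0.126, 95% interval -0.73 to -0.20) and did not pass the test over all genes (limma adjusted p = 0.104). Without array 1 of the CAV1 blocker group it was -0.33 with an adjusted p of 0.0266, past the threshold. As for Ms4a7, these p-values are not independent of how the members were chosen.

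Ms4a14, the other member that fell with the CAV1 blocker, had bleomycin groups that nearly separated. After bleomycin its values ran from 6.67 over a median of 7.34 to 7.61 with the CAV1 blocker, and from 7.55 over 7.89 to 7.97 with the control blocker. PBS lungs had 6.54 and 6.72 with the CAV1 blocker and 6.70 and 6.92 with the control blocker. These PBS values lay near the array median of 6.52, so the gene was dim there, and no detection marks were used. The bleomycin groups overlapped by their nearest arrays only, 7.61 with the CAV1 blocker and 7.55 with the control blocker. As a description, Ms4a14 was higher after bleomycin by 0.64 (SE 0.179) with the CAV1 blocker and by 1.02 (SE 0.179) with the control blocker. Ms4a14 fell with the CAV1 blocker after bleomycin by 0.56 (SE 0.126, 95% interval -0.83 to -0.29, limma adjusted p = 0.0337). Its p-values between blockers, too, are not independent of how the members were chosen. The call was lost without array 1, 2, 3, 5 or 6 of the control blocker group, or without array 2, 3, 5 or 6 of the CAV1 blocker group, at adjusted p values of 0.0523 to 0.0884. It held in 7 of 16 such fits, and without array 1 of the CAV1 blocker group the change was -0.44 with an adjusted p of 0.0166. The Ms4a14 call was also lost without the arrays low in muscle and squamous markers (-0.56, adjusted p 0.326), without the arrays of RNA integrity number 10 (-0.52, adjusted p 0.218), with the muscle marker level as a covariate (-0.54, adjusted p 0.0521) and with the bleomycin groups fitted alone (-0.56, adjusted p 0.0506).

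Ms4a6c, known from mouse monocytes, differed less. Its values after bleomycin ran from 9.16 over a median of 9.40 to 9.58 with the CAV1 blocker, and from 9.46 over 9.52 to 9.88 with the control blocker. PBS lungs had 9.19 and 9.28 with the CAV1 blocker and 9.00 and 8.85 with the control blocker. The bleomycin groups overlapped, and with the CAV1 blocker the bleomycin and PBS arrays overlapped too. As a description, Ms4a6c was higher after bleomycin by 0.15 (SE 0.13) with the CAV1 blocker and by 0.69 (SE 0.13) with the control blocker. Between blockers after bleomycin it differed by -0.23 (SE 0.0915, limma adjusted p = 0.415).

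After bleomycin the count over the family was thus 1 member called higher with the CAV1 blocker, Ms4a4c, and 2 lower, Ms4a7 and Ms4a14. The bleomycin arrays with the control blocker stand in this comparison and in that of bleomycin against PBS, so a member chosen for a high value in them leans towards a lower value with the CAV1 blocker. The counts and p-values of the members between blockers after bleomycin are therefore not independent of how the members were chosen, and nothing is read from their share. Over all genes 1.2% were called higher and 0.414% lower, 1.61% together, and the median change was -0.23 over the members and -0.01 over all genes. The bleomycin groups did not overlap in 3 members, Ms4a4c, Ms4a7 and Ms4a6d, against 2.33% of all genes.

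**Figure D2:**
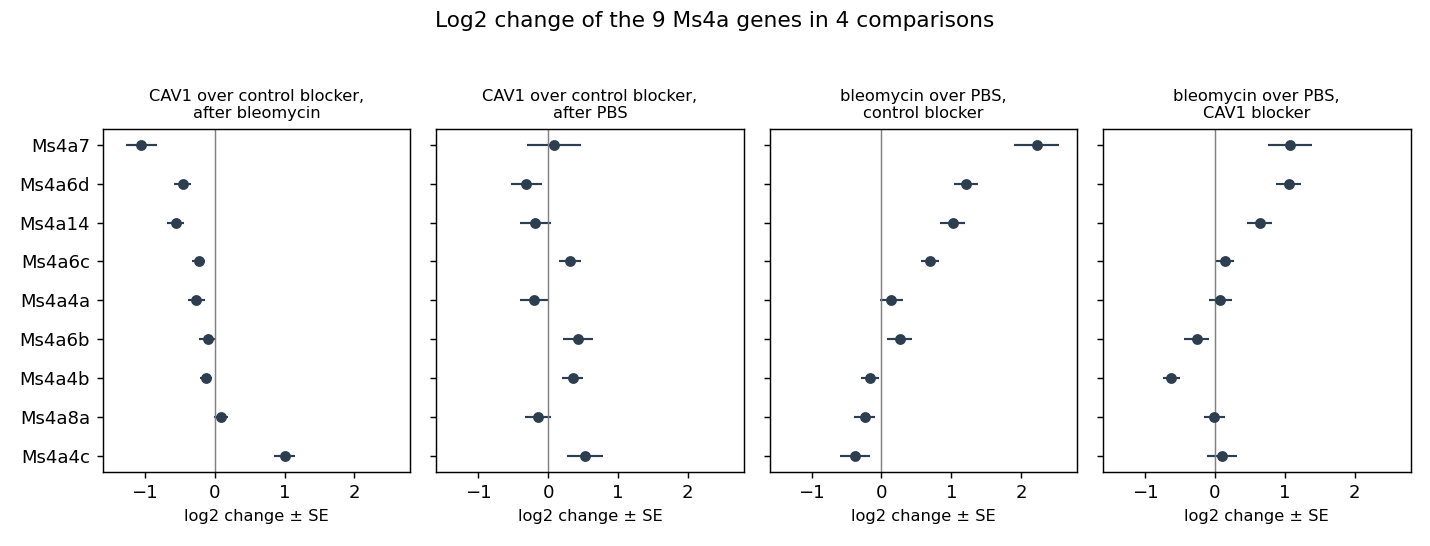
Log2 change of each member by comparison, with bars showing the SE from limma. Points right of 0 are higher in the group named first in the panel, and between the blockers in bleomycin lungs Ms4a7 stands at -1.05, Ms4a14 at -0.56 and the brightest Ms4a4c spot at 1.00.

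Ms4a4c, found in mouse monocytes and induced by interferon, was measured by 3 spots that did not move together. On the brightest spot the bleomycin lungs had 14.39, 14.64, 14.60, 14.89, 14.57 and 15.07 with the CAV1 blocker. They had 13.59, 13.69, 13.65, 13.80, 13.71 and 13.69 with the control blocker. PBS lungs had 14.69 and 14.51 with the CAV1 blocker and 13.50 and 14.63 with the control blocker. All bleomycin arrays with the CAV1 blocker lay above all with the control blocker, and the PBS arrays with the control blocker were split, array 1 beside the bleomycin arrays of the same blocker and array 2 beside the arrays with the CAV1 blocker. The brightest Ms4a4c spot rose with the CAV1 blocker after bleomycin by 1.00 (SE 0.152, 95% interval 0.68 to 1.33, limma adjusted p = 0.00216), and the call held in 16 of 16 fits without 1 array, at 0.93 to 1.06. Without the arrays low in muscle and squamous markers the Ms4a4c change was 1.03 with an adjusted p of 0.0664.

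The middle Ms4a4c spot averaged 10.48 ± 0.29 after bleomycin with the CAV1 blocker and 10.47 ± 0.11 with the control blocker (SD, n = 6 each), a difference of 0.01 (95% interval -0.25 to 0.27). The dimmest spot averaged 8.35 ± 0.29 with the CAV1 blocker and 8.42 ± 0.12 with the control blocker (SD, n = 6 each), a difference of -0.08 (95% interval -0.35 to 0.20). The intervals of both dimmer spots lay below that of the brightest. With the mean of the 3 spots, Ms4a4c differed by 0.31 (limma adjusted p = 0.0933). The brightest spot alone carried the call, and with which transcript each spot binds not known here, the direction given for Ms4a4c is that of this spot.

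**Figure D3:**
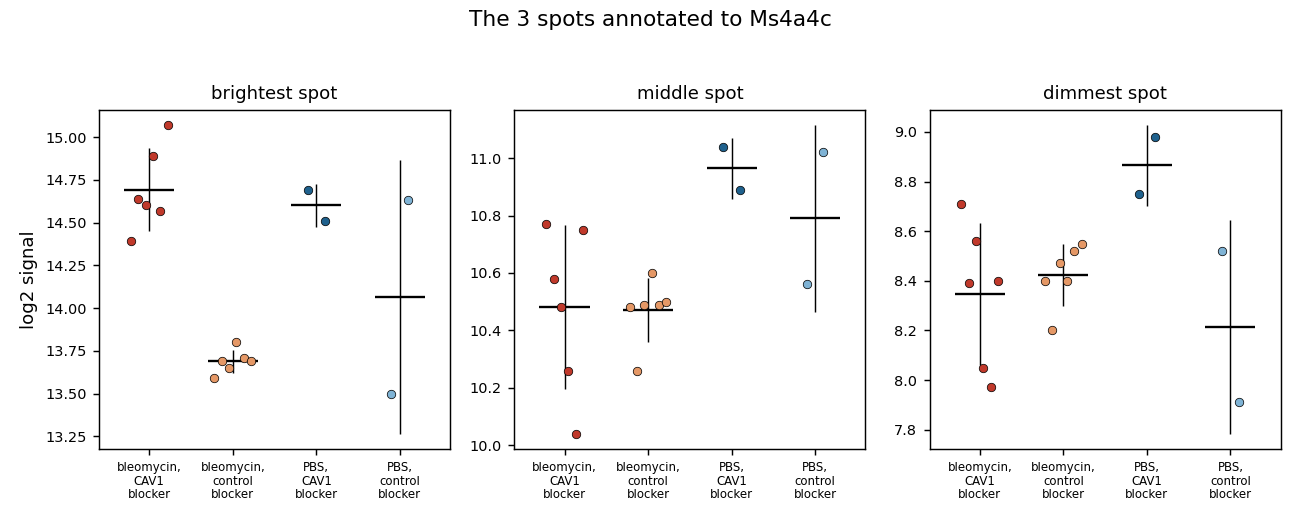
Log2 signal of the 3 spots annotated to Ms4a4c in every array, each with its own vertical scale. Points are arrays, horizontal lines means and vertical lines SDs; the bleomycin groups separate on the brightest spot, with means of 14.69 and 13.69 for the CAV1 and the control blocker, and overlap on the other spots.

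Ms4a4b, the T cell adaptor, had 10.50 to 10.91 (median 10.69) after bleomycin with the CAV1 blocker and 10.58 to 10.98 (median 10.83) with the control blocker. PBS lungs had 11.35 and 11.26 with the CAV1 blocker and 11.13 and 10.77 with the control blocker. Every bleomycin array with the CAV1 blocker lay below both PBS arrays with that blocker, and with the control blocker the arrays overlapped. As a description, the bleomycin difference of Ms4a4b was -0.62 (SE 0.126) with the CAV1 blocker and -0.16 (SE 0.126) with the control blocker. With the CAV1 blocker it was the 1 member called lower and Ms4a6d the 1 called higher, against 0.172% and 0.345% of all genes, 0.517% together. That count of 2 was 4 without array 1 of bleomycin with the CAV1 blocker, when 3.54% of all genes were called, and 0 without array 2, 4, 5 or 6 of it or either PBS array with that blocker. The call of Ms4a4b held in 4 of 16 fits without 1 array and that of Ms4a6d in 10 of 16. The mean of the T cell and NK cell markers lay at 8.91 to 9.14 after bleomycin and 9.25 to 9.31 after PBS with the CAV1 blocker, and at 8.98 to 9.13 after bleomycin and 9.12 to 9.64 after PBS with the control blocker, and their part in the Ms4a4b values was not tested. Both blocker differences of Ms4a4b missed the threshold, at -0.12 after bleomycin (limma adjusted p = 0.846) and 0.35 after PBS (limma adjusted p = 0.386).

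Ms4a4a, Ms4a6b and Ms4a8a were called in none of the comparisons over all 16 arrays, and in each of the 3 the bleomycin groups overlapped. Ms4a4a, the macrophage partner of Dectin-1, averaged 7.67 ± 0.18 after bleomycin with the CAV1 blocker and 7.93 ± 0.26 with the control blocker (SD, n = 6 each), a difference of -0.26 (95% interval -0.51 to -0.01, limma adjusted p = 0.518). Ms4a6b averaged 6.89 ± 0.15 with the CAV1 blocker and 6.98 ± 0.15 with the control blocker (SD, n = 6 each), a difference of -0.10 (95% interval -0.36 to 0.17, limma adjusted p = 0.942). The Ms4a6b signal was dim, near the array median of 6.52. Ms4a8a, known from alternatively activated mouse macrophages, averaged 9.62 ± 0.24 with the CAV1 blocker and 9.53 ± 0.13 with the control blocker (SD, n = 6 each), a difference of 0.09 (95% interval -0.14 to 0.31, limma adjusted p = 0.934). These intervals leave room for small differences in either direction for Ms4a6b and Ms4a8a. Their bleomycin differences from PBS were 0.08, -0.26 and -0.01 for Ms4a4a, Ms4a6b and Ms4a8a with the CAV1 blocker, and 0.14, 0.26 and -0.24 with the control blocker. The 0.26 of Ms4a6b ran from -0.15, without array 2 of PBS with the control blocker, to 0.68, without array 1. Without array 1 Ms4a6b was also called between the blockers after PBS (0.84, limma adjusted p = 0.0194) and for the interaction (-0.94, limma adjusted p = 0.0271), in a fit that called 19.8% and 14.8% of all genes.

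After PBS alone, 0 of 9 members were called between the blockers by limma, against 0.31% of all genes. By brightest spots, Ms4a4b was the 1 member with an unadjusted p under 0.05, against 2600 of all 20304 genes. The PBS arrays stand in the bleomycin comparisons too, so these member values are not independent of how the members were chosen. Ms4a7 differed by 0.09 (SE 0.388, 95% interval -0.73 to 0.92, limma adjusted p = 0.922). The brightest Ms4a4c spot differed by 0.53 (SE 0.263, limma adjusted p = 0.404), and its value depends on which PBS array with the control blocker is used, being 1.10 without array 2 and -0.03 without array 1. In the limma fit over all spots, the middle Ms4a4c spot differed by 0.18 (adjusted p 0.755). The dimmest differed by 0.65 (unadjusted p 0.0115, adjusted p 0.321). The interaction of bleomycin with the blocker, which asks whether the blocker difference differs between bleomycin and PBS lungs, was called for 0 of 9 members and 0.0% of all genes by limma. The members with an unadjusted p under 0.05 were 3, against 1873 of all 20304 genes. They were Ms4a6c (-0.54), Ms4a4b (-0.47) and Ms4a7 (-1.14, 95% interval -2.10 to -0.18), each with a limma adjusted p of 0.497. The dimmest Ms4a4c spot, at -0.73, had an unadjusted p of 0.0138 and an adjusted p of 0.588 by limma over all spots. The interaction is the difference of the 2 bleomycin comparisons, whose values were known when the members were chosen. The member p-values and interval are thus not independent of that choice, and nothing is read from them.

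The myeloid markers give the setting of these values. Of 18 tested markers of monocytes and monocyte-derived macrophages, 1 was called higher and 0 lower after bleomycin with the CAV1 blocker (median change 0.90), namely Trem2 (2.25). With the control blocker 7 were called higher and 0 lower (median 1.02), among them Fcgr1 (1.03), Fn1 (1.38), Adgre1 (0.95) and Spp1 (2.91). Over all genes, 0.345% were called higher and 0.172% lower with the CAV1 blocker, and 1.96% and 0.448% with the control blocker. Between blockers after bleomycin 1.61% of all genes were called. The marker lists were chosen with earlier results of these data known, so nothing is read from their shares. Between blockers after bleomycin 0 of 18 were called by limma, 7 had an unadjusted p under 0.05 and 16 had a negative change (median -0.40). In that comparison 1843 of all 20304 genes had an unadjusted p under 0.05. The counts of the lists below stand beside the same 1843 and the same shares of all genes. Gpnmb stood at -1.14 (limma adjusted p = 0.240), C1qb at -0.79 (limma adjusted p = 0.297), Cx3cr1 at -0.48 (limma adjusted p = 0.0964) and Fcgr1 at -0.42 (limma adjusted p = 0.102). The mean level of the macrophage list ran from 10.56, in array 1, to 11.87 after bleomycin with the CAV1 blocker and from 11.60 to 12.03 with the control blocker. It was 10.32 to 10.41 after PBS with the CAV1 blocker and 10.70 to 11.01 after PBS with the control blocker, and 1 of the 18 genes had a level under the array median in PBS lungs. The part of these markers in the Ms4a7, Ms4a6d and Ms4a14 differences was not tested.

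The receptors and adaptors known to work with the family were partly called after bleomycin, and Trem2 stands both in this list and in the macrophage one. Of 11 tested genes around Trem2 and Dectin-1, 3 were called higher and 0 lower after bleomycin with the CAV1 blocker (median 0.52), namely Trem2 (2.25), the Fc receptor Fcgr3 (1.00) and the adaptor Tyrobp (0.49). With the control blocker 4 were called higher and 0 lower (median 0.41), namely Trem2 (1.85), Fcgr2b (0.86), Clec7a (0.81) and Tyrobp (0.57). The shares of all genes called higher were 0.345% with the CAV1 blocker and 1.96% with the control blocker. Between blockers after bleomycin 0 of 11 were called by limma and 4 had an unadjusted p under 0.05, with Trem2 at -0.86 (limma adjusted p = 0.350) and Tyrobp at -0.25 (limma adjusted p = 0.132). Of 12 myeloid transcription factors and growth factor receptors, 1 was called higher after bleomycin with the CAV1 blocker, the receptor subunit Csf2rb (0.77), and 2 with the control blocker, Csf2rb (0.74) and Csf2ra (0.63). Between blockers after bleomycin 0 of these 12 were called by limma, and 2 had an unadjusted p under 0.05.

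Markers of other cells were counted in the same way, and 0.448% of all genes were called lower after bleomycin with the control blocker. Of 13 resident alveolar macrophage markers, 0 were called higher and 2 lower after bleomycin with the control blocker (median -0.63), and 0 were called between blockers after bleomycin by limma (median 0.22), with 1 at an unadjusted p under 0.05. Of 16 T cell and NK cell markers 1 was called lower after bleomycin with the control blocker, Cd3e (-0.63), and 0 between blockers after bleomycin by limma (median -0.03), with 1 at an unadjusted p under 0.05. In bleomycin lungs limma called 0 markers between the blockers for B cells (10 tested, 1 with an unadjusted p under 0.05), mast cells (9, 0), neutrophils (11, 3), dendritic cells (10, 2), ciliated cells (8, 1), skeletal muscle (12, 0) and squamous epithelium (12, 0). Their median changes were 0.03, 0.09, 0.38, -0.07, -0.02, 0.56 and 0.57, in that order. Of the neutrophil changes 9 were positive and 2 negative. For bleomycin against PBS, limma called 1 neutrophil marker lower with the control blocker, Ngp (-1.29). With the CAV1 blocker it called 1 squamous marker higher, Sprr1a (3.38). Of the 13 other tested genes made of the remaining 11 Ms4a genes and their relatives Tmem176a and Tmem176b, 0 were called in any comparison by limma, with 1 to 4 at an unadjusted p under 0.05 in each. Over all 20304 genes, 1843 to 3221 had an unadjusted p under 0.05, depending on the comparison. Among 12 of the 13 other genes, 6 to 8 had a mean level under the array median of 6.52, depending on the group. The remaining gene, Ms4a19, had group means of 5.94 to 6.11. The lack of calls therefore says little about these dim genes. Ms4a1 had a mean of 10.60 after bleomycin and 11.50 after PBS with the CAV1 blocker, a difference of -0.90 (limma adjusted p = 0.131).

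**Figure D4:**
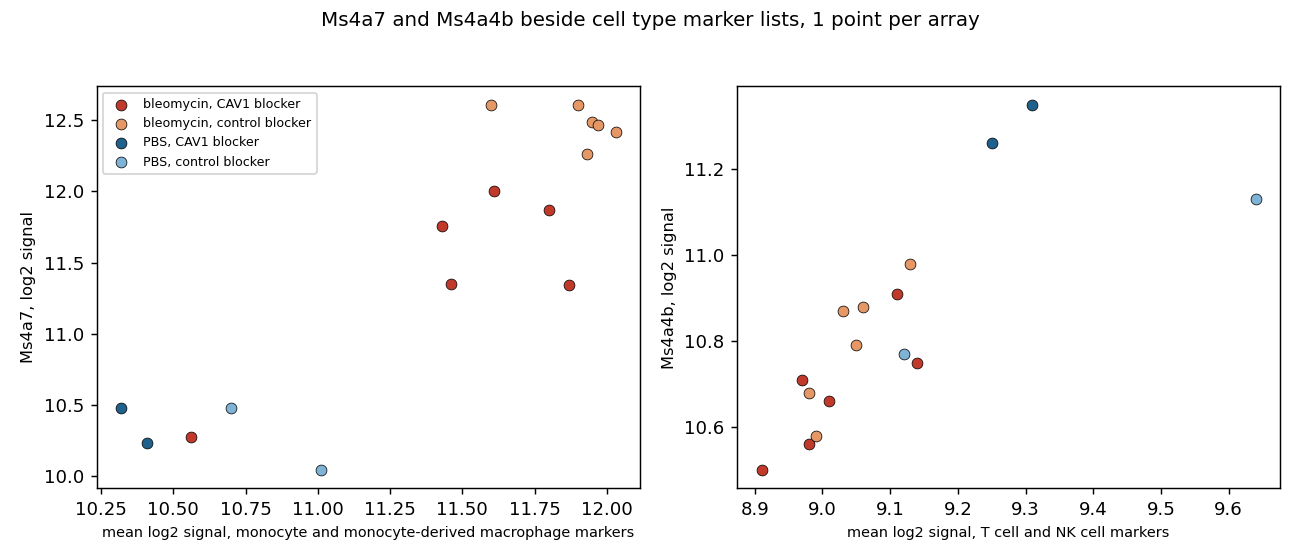
Log2 signal of Ms4a7 against the mean of the monocyte and monocyte-derived macrophage markers, and of Ms4a4b against that of the T cell and NK cell markers. Points are arrays, coloured by group. The monocyte-derived macrophage list lies at 11.60 to 12.03 after bleomycin with the control blocker and reaches down to 10.56 with the CAV1 blocker.

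Within the 12 bleomycin arrays, with the mean of each blocker group taken away, the members fell into different patterns. These correlations describe arrays that share a hybridisation design and are given without a test. Ms4a7 and Ms4a6d went together (Pearson r 0.95, Spearman rho 0.78, and r 0.69 without the 2 arrays farthest from the median). Ms4a14 followed Ms4a6d with r 0.85, rho 0.51 and r 0.32 without the 2 farthest arrays, and followed Ms4a7 with r 0.76, rho 0.20 and r 0.18, so both of these relations rest on those arrays, which include array 1 of the CAV1 blocker group. The genes outside the family most like Ms4a7 were Raet1e (r 0.97, rho 0.87, r 0.82 without the 2 farthest arrays), Clec4n (0.97, 0.84 and 0.83) and Adamts17 (0.96, 0.92 and 0.90). Clec4n is Dectin-2, a receptor of macrophages and dendritic cells, and it was also among the 3 nearest to Ms4a6d (0.97, 0.86 and 0.84). The others were Fxyd4 (0.98, 0.97 and 0.93) and the protease gene Ctsk (0.98, 0.94 and 0.89), which stands in the resident alveolar macrophage list. Ms4a7 against the mean of the macrophage list gave r 0.73, rho 0.19 and r 0.02 without the 2 farthest arrays, so that relation rests on those arrays. Against the same list Ms4a6d had 0.83, 0.42 and 0.37, Ms4a14 had 0.76, 0.29 and 0.51, and the brightest Ms4a4c spot had 0.77, 0.52 and 0.43, in the same order. Against the resident alveolar macrophage list, Ms4a7 had -0.51, -0.36 and -0.52 and Ms4a6d -0.51, -0.43 and -0.53. Ms4a14 had -0.55, -0.33 and -0.68 there, and the brightest Ms4a4c spot -0.65, -0.75 and -0.74.

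Ms4a4b and the dimmer Ms4a4c spots formed another set. The middle and the dimmest Ms4a4c spots had r 0.84, rho 0.59 and r 0.65 without the 2 farthest arrays. Ms4a4b had r 0.79, rho 0.74 and r 0.69 with the middle spot, and r 0.76, rho 0.57 and r 0.66 with the dimmest. The brightest Ms4a4c spot had r 0.09 with the middle spot and r -0.31 with the dimmest, and its nearest genes were Ubtf (0.99, 0.97 and 0.97), Sp110 (0.98, 0.99 and 0.94) and Spag7 (0.98, 0.96 and 0.94). Ms4a4b followed the T cell and NK cell marker mean with r 0.81, rho 0.79 and r 0.80 without the 2 farthest arrays, and the macrophage list with r -0.50, rho -0.38 and r -0.15. The values of Ms4a4b in these lungs thus went with lymphocyte markers and not with the monocyte-derived macrophage list. Ms4a4a likewise followed the T cell and NK cell mean (r 0.65, rho 0.71, and r 0.76 without the 2 farthest arrays) and not the macrophage list (-0.23, -0.31 and -0.07), and Ms4a6b ran against the macrophage list (-0.30, -0.69 and -0.50). Ms4a8a had -0.31, -0.36 and -0.39 and Ms4a6c 0.21, -0.07 and 0.50 with the macrophage list. The middle Ms4a4c spot followed the B cell and plasma cell mean (0.88, 0.87 and 0.79), and the dimmest ran against the macrophage list (-0.67, -0.78 and -0.69). For Ms4a4b, Ms4a4a, Ms4a6b, Ms4a8a and the dimmer Ms4a4c spots, a positive tie to the monocyte-derived macrophage list was thus not seen within these arrays. With the resident alveolar macrophage markers Ms4a8a had 0.56, 0.62 and 0.54, Ms4a6b 0.49, 0.64 and 0.52 and Ms4a4b 0.33, 0.17 and 0.17. Ms4a4a had 0.08, -0.04 and -0.01, the middle Ms4a4c spot 0.42, 0.31 and 0.45 and the dimmest 0.63, 0.48 and 0.56. Without the 2 farthest arrays, r with the neutrophil markers was 0.58 for Ms4a6b, 0.75 for the dimmest spot and 0.06 to 0.27 for the rest.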

How the data were processed

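Expression was measured on 16 single-colour Agilent arrays of mouse whole-lung RNA (0.2 µg each). The deposited values are log2 signals, made with limma per the submitters' processing notes (version not given in the sources used here). Their distributions were nearly alike, with a minimum of 5.39 to 5.41, a median of 6.51 to 6.52 and a maximum of 18.28, and they were used as deposited. Background correction, scan and slide are not given in the sources used here, and no detection marks were used. Precision is limited by how many arrays there are.

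Of 62976 spots, 31465 had 1 gene symbol and 31511 had none in the platform table. RefSeq (GRCm38.p6) matched 29050 and renamed 2933 of these. The spot with the highest mean stood for a gene, and genes above the 25th percentile of an array in at least 2 arrays were tested. limma 3.58.1 in R 4.3.3 fitted 1 mean per group over all 16 arrays (12 residual degrees of freedom), with two-sided tests and Benjamini-Hochberg adjustment over 20304 genes. The fit was tested on simulated data. Promoters and correlations were handled in Python 3.11.15.

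Groups came from the sample labels. The members, the marker lists and the tests were chosen with earlier results of these data known. Named were all members and other Ms4a genes, the 3 genes most like each member and up to 4 genes of a list with the smallest p. Marker lists were also made for B cells, mast cells, neutrophils, dendritic cells and ciliated cells. Alternatives covered the filter, spot choice, normalization, variance model, samples fitted, a replicate block, a muscle covariate and arrays left out.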

Additional observations from a re-analysis of the deposited data

Results flagged for a closer look

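In 22 groups of 6 arrays, 1 for each member spot and bleomycin group, the highest and lowest arrays were set against the rest by Dixon's ratio of the gap to the range, whose critical value is 0.625 and which chance exceeds in about 1 group in 20. Array 1 of bleomycin with the CAV1 blocker was far below the other 5 for Ms4a6d, at 8.94 (ratio 0.685), and for Ms4a14, at 6.67 (ratio 0.636). Array 2 of bleomycin with the control blocker was far below the rest on the middle Ms4a4c spot, at 10.26 (ratio 0.646). The spots share arrays, so the 3 are not independent.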

How the results depend on the processing

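The count of members called depended on single arrays and on the model. For bleomycin against PBS with the control blocker, 4 members were called, and 0 with the replicate block, without the arrays low in muscle and squamous markers, or without the arrays of RNA integrity number 10. Leaving out 1 array gave 0 (without array 2 of PBS with the control blocker) to 6 (without array 1, when 20.1% of all genes were called, against 0.448% without array 2). With the CAV1 blocker, 2 were called, and 0 with the groups compared alone, the replicate block, the muscle covariate, or without the arrays of RNA integrity number 10. It was 4 without array 1 of bleomycin with the CAV1 blocker and array 2 of PBS with the control blocker together (an alternative chosen after seeing the data), and 0 to 4 without 1 array. It was 0 without either PBS array or without array 2, 4, 5 or 6 of bleomycin with the CAV1 blocker, and 4 without array 1, when 3.54% of all genes were called. For the blockers after bleomycin, 3 were called, and 1 with the replicate block, 0 without the low arrays, 1 without the arrays of RNA integrity number 10 and 1 to 4 without 1 array. It was 1 without array 1, 2, 5 or 6 of the control blocker or array 2 or 6 of the CAV1 blocker. After PBS, 0 were called, 1 under the joint removal, and 0 to 2 without 1 array, with 2 without array 1 of the control blocker (19.8% of all genes called) and 1 without array 2 (0.827%). The interaction called 0, and 0 to 3 without 1 array, with 3 without array 1 of PBS with the control blocker (14.8% of all genes called).

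Directions turned in a few values that had not passed the test, the Ms4a4c blocker change after bleomycin excepted. That change was -0.08 by its dimmest spot. Ms4a7 between blockers after PBS was -0.31 with the muscle covariate, -0.13 under the joint removal and -0.13 to 0.31 without 1 array, and Ms4a4c ran from -0.03 to 1.10. The Ms4a4c interaction was -0.14 with the mean of its spots, -0.73 by the dimmest spot, -0.17 by the middle one, -0.03 under the joint removal and -0.09 to 1.04 without 1 array. The Ms4a4a interaction was 0.10 with the muscle covariate and -0.18 to 0.07 without 1 array, and that of Ms4a6d was 0.02 under the joint removal. In the bleomycin comparisons, where member values are descriptions, signs turned without 1 array for Ms4a6b (-0.15 to 0.68), Ms4a4c (-0.94 to 0.19) and Ms4a4b (-0.34 to 0.03) with the control blocker, and for Ms4a4a (-0.04 to 0.21) and Ms4a8a (-0.15 to 0.12) with the CAV1 blocker. By spot, Ms4a4c was 0.10 on the brightest, -0.49 on the middle and -0.52 on the dimmest with the CAV1 blocker, and -0.38, -0.32 and 0.21 with the control blocker. The cause of these changes was not tested. Filters, renewed normalization, centring and the variance model kept the calls of Ms4a7, Ms4a14 and the brightest Ms4a4c spot after bleomycin.

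Whether replicate numbers pair the samples cannot be told from the likeness of the arrays, and the main fit did not use them. Deviations of the same number correlated between -0.69 and 0.352 in the bleomycin groups, and arrays were nearest to their own number in 2 of 6 pairs. With the replicate block the blocker change after bleomycin had adjusted p values of 0.0745 for Ms4a7, 0.102 for Ms4a14 and 0.0153 for Ms4a4c. The fit without the low arrays had no PBS arrays with the CAV1 blocker and could not be fitted for comparisons that need them, and the groups compared alone do not apply to the interaction. Over all genes, the calls between blockers after bleomycin numbered 327, and 65 without the low arrays, 212 with the replicate block and 205 without the arrays of RNA integrity number 10.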
